A study of Homo sapiens with 6 samples.

Results

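The loci of ZNF608, FOXB1, AUTS2, FHIT, NRXN3 and NUP35 were examined for clusters of β-catenin binding sites in human embryonic stem cells. They were chosen because the authors assigned at least 4 peaks to each of these genes in cells treated with CHIR and SB, so the number of peaks in that list describes the choice and is not a result. The 6 genes took 29 of 1813 peaks in the CHIR+SB list, 14 of 1053 in the CHIR list and 1 of 260 in the RPMI list. In all, 17 of the 1511 genes named in the CHIR+SB list had 4 or more peaks, and the 6 loci are a subset of these.

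The cells were SA121, a human embryonic stem cell line, kept as confluent cultures and placed in RPMI-1640 medium for 6 h. One culture condition added CHIR99021 and SB431542 (CHIR+SB), another added CHIR99021 alone (CHIR), and the third had RPMI medium with neither compound. Chromatin immunoprecipitation was followed by sequencing with an antibody to β-catenin, and each condition had 1 such library and 1 library with control goat IgG. Material from parallel immunoprecipitations was pooled into each library, and differences between conditions have no replicate check. The peak lists hold no expression values, and the stem cell identity of the cultures could not be checked against marker transcripts.

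β-catenin does not bind DNA itself but is brought to it by TCF/LEF factors, and it enters the nucleus when the kinase GSK3 no longer marks it for destruction. CHIR99021 inhibits GSK3 and so acts like a Wnt signal. SB431542 blocks the receptor kinases that carry Nodal, activin and TGFβ signals, which act through SMAD2 and SMAD3. Regulatory elements bound in this way can lie far from a promoter, and a developmental gene often has several of them spread over the surrounding noncoding DNA.

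The deposited lists give, for each peak, the reads within its boundaries from the antibody and from the IgG library, and both counts scaled by 1 factor per library. The scaled β-catenin count is called the signal here. The lowest peak had 12 reads in the CHIR+SB list, 20 in the CHIR list and 15 in the RPMI list, which are signals of 6.75, 7.68 and 9.61. By the authors' factors the β-catenin library was 1.14 times as deep in CHIR+SB and 1.67 times as deep in CHIR as in RPMI, and the IgG library 1.75 and 0.976 times as deep. Intervals below come from read counts, cover counting error only, and compare single libraries. For ratios per kb of width they take the called widths as fixed, although each width was called from the same library as the reads.

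"Long locus" describes 3 of the 6 genes. The transcripts the authors used spanned 1698 kb at NRXN3, 1502 kb at FHIT and 1194 kb at AUTS2, each longer than 99% of the genes named in the CHIR+SB list or more (99.8%, 99.7% and 99.1%). The median over the genes of that list was 45.2 kb. ZNF608 spanned 108 kb (68.2% of the genes were shorter) and NUP35 37.3 kb (46.3%). FOXB1 spanned 1.72 kb, and 7.02% of those genes were shorter. At ZNF608, FOXB1 and NUP35 the clusters therefore lay mostly in the flanking DNA, not in the gene. In the RefSeq gene order (GRCh38.p14, used for names only) the protein-coding neighbours are CSNK1G3 and GRAMD2B for ZNF608, BNIP2 and ANXA2 for FOXB1, and DUSP19 and ZNF804A for NUP35. No peak assigned to another gene lay inside any of the 6 clusters, in any list.

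**Figure D1:**
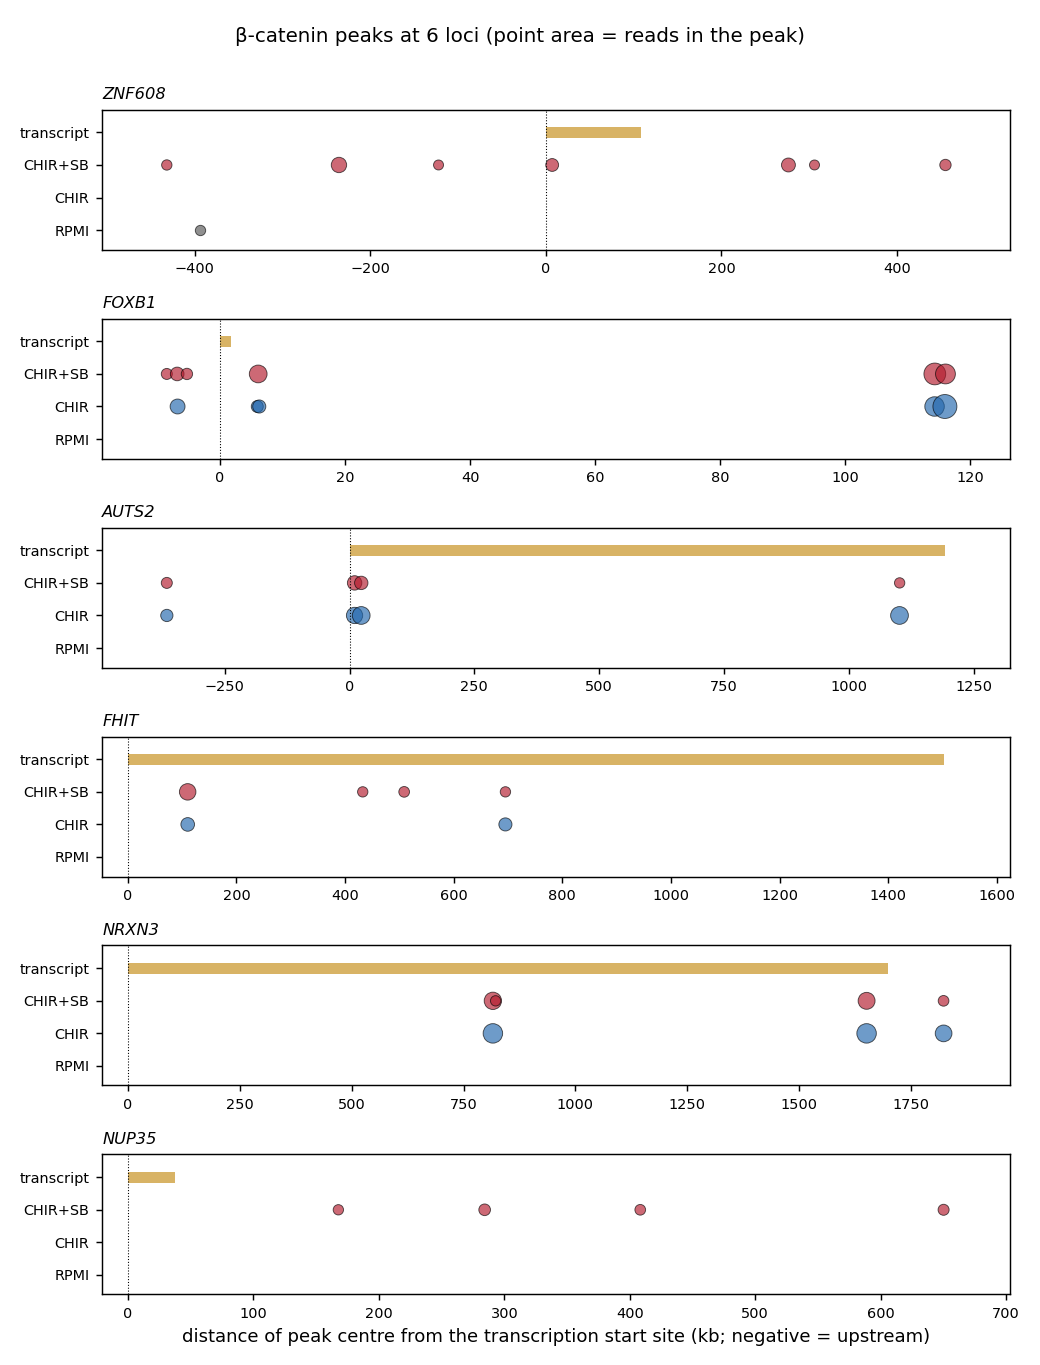
Position of every β-catenin peak at the 6 loci, in kb from the start site of the longest transcript the authors used, with 1 row per library and the transcript as a bar. Point area is proportional to reads in the peak. All 14 CHIR peaks sit under a CHIR+SB peak, whereas the 7 ZNF608 and 4 NUP35 peaks of CHIR+SB have no CHIR peak beneath them.

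FOXB1 had the highest signal of the 6 loci with both treatments. It encodes a forkhead transcription factor of the embryonic brain and neural tube. The highest signals came from a pair of neighbouring peaks about 115 kb downstream of the gene (hg19 chromosome 15, 60410191 to 60411268 and 60412070 to 60412793 in CHIR+SB). They held 66 and 55 reads in CHIR+SB, against 53 and 80 in CHIR, which are signals of 37.1 and 30.9 against 20.4 and 30.7. Within the CHIR+SB list the first of the pair ranked 17 by signal. The pair was wide, at 1077 and 723 bp in CHIR+SB, against a list median of 260 bp. Per kb of width its signals were 34.5 and 42.8 in CHIR+SB, against a list median of 40.2. In CHIR they were 27.9 and 46.2, against 36.4. The pair lay 114.3 and 116.0 kb from the transcription start site (TSS), 1.70 kb apart from centre to centre in CHIR+SB and 1.66 kb apart in CHIR.

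Closer to FOXB1, both lists marked a site on either side of the short gene. Upstream, at 6.83 kb in CHIR+SB and 6.77 kb in CHIR, the peaks had 26 and 31 reads. Downstream, 1 CHIR+SB peak of 44 reads and 1007 bp (60302039 to 60303046) covered 2 CHIR peaks of 20 and 24 reads whose edges were 0.158 kb apart. The 2 CHIR peaks together had 44 reads, a signal of 16.9 against 24.8 in CHIR+SB, a ratio of 1.46 (exact 95% interval 0.942 to 2.28). CHIR+SB also had 2 lower upstream peaks, of 17 and 18 reads at 8.49 and 5.27 kb, whose centres lay 1.72 and 1.49 kb from the CHIR peak between them without overlap. FOXB1 thus had 6 peaks in CHIR+SB, 5 in CHIR and none in RPMI. With peaks whose edges lay within 1 kb counted as 1 site, it had 5 sites in CHIR+SB and 3 in CHIR.

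ZNF608, which encodes a zinc finger protein, had 7 peaks in CHIR+SB and none in CHIR. The 7 CHIR+SB peaks stretched over 887 kb on both sides of the gene (hg19 chromosome 5, 123625498 to 124512427), and CHIR had no peak anywhere in that span. Upstream of the gene the CHIR+SB peaks had 14, 33 and 15 reads at 122, 235 and 432 kb from the TSS. Within the gene, 7.305 kb from the TSS, a peak had 23 reads. Beyond the end of the gene the peaks had 27, 14 and 18 reads at 276, 306 and 455 kb. The nearest CHIR peak to any of them lay 1708 kb away and was assigned to MARCH3.

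The ZNF608 peaks were not lower than peaks that the CHIR list holds. At equal signal the CHIR library would hold 48.3 reads at the highest peak (124316011 to 124316595), 39.6 at the next and 33.7 at the peak within the gene, against the 20 reads of the lowest CHIR peak. At the lowest ZNF608 peaks, of 14 reads, the expected count is 20.5, which counting error could put under 20. The reads that CHIR did have at these places are not listed. Over the whole CHIR+SB list, 12 of 232 peaks at or above the signal of the highest ZNF608 peak overlapped no CHIR peak (5.17%). For the next highest it was 36 of 358 (10.1%), and for the peak within the gene 90 of 515 (17.5%). For the other 4 ZNF608 peaks, of 14 to 18 reads, the share without a CHIR peak was 36.7 to 63.3%. All these shares also count the higher peaks of the list, so they are not shares at 1 height. The ZNF608 peaks of 14 and 15 reads lay below the list's median signal. Of all CHIR+SB peaks at or below that median, 829 of 939 overlapped no CHIR peak. The 1 RPMI peak of the 6 loci was also assigned to ZNF608, with 15 reads at 394 kb upstream (124474755 to 124474932). It overlapped no peak of either other list, and its centre lay 37.5 kb from the nearest CHIR+SB peak.

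AUTS2 had 4 sites where the peaks of both treatments overlapped. It encodes a nuclear protein found with Polycomb group proteins and needed in developing neurons. One site lay 366 kb upstream, 2 in the gene at 10.1 and 23.5 kb from the TSS, and 1 in the gene 1102 kb from the TSS, so the cluster spanned 1468 kb in each list (hg19 chromosome 7, 68697744 to 70165818 in CHIR+SB). From the upstream site onward the peaks had 17, 29, 25 and 15 reads in CHIR+SB. The CHIR peaks that overlapped these had 21, 37, 44 and 44 reads. The signals were 9.56, 16.3, 14.1 and 8.44 in CHIR+SB, against 8.06, 14.2, 16.9 and 16.9 in CHIR. The CHIR+SB to CHIR ratios of these signals were 1.19, 1.15, 0.832 and 0.499, and the interval missed 1 at the last site alone (0.258 to 0.915). At that last site the peaks, 202 bp wide in CHIR+SB and 516 bp in CHIR, shared only 79 bp. Their ratio thus compares mostly different sequence. Per kb of peak width the ratios were 0.744, 0.581, 1.02 and 1.28, so each of the 4 directions turned, and the interval missed 1 at the second site alone (0.345 to 0.971). RPMI had no peak at AUTS2.

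NRXN3, which encodes the presynaptic adhesion protein neurexin 3, had 4 peaks in CHIR+SB and 3 in CHIR over 1007 and 1008 kb (hg19 chromosome 14, 79451973 to 80459355 in CHIR+SB). All 3 CHIR sites recurred in CHIR+SB. The first had 42 reads in CHIR+SB and 53 in CHIR, signals of 23.6 and 20.4. The second, in the gene, had 40 and 53 reads, signals of 22.5 and 20.4. The third, beyond the end of the gene, had 16 and 39 reads, signals of 9.001 and 14.98. The CHIR+SB to CHIR ratio had an interval that included 1 at all 3 sites, and at the third it was 0.601 (0.314 to 1.10). Per kb of peak width the third site had the opposite direction, with a ratio of 1.96 (1.02 to 3.58). That interval takes the called widths, 153 bp in CHIR+SB and 498 bp in CHIR, as fixed. The remaining CHIR+SB peak, of 15 reads (79458320 to 79458478), stood 6.11 kb from the first site. The authors placed the first site 293 kb upstream of a short NRXN3 transcript. The same site lies inside the longer transcript that they used for the other 2 sites, 816 kb from its start.

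FHIT encodes a diadenosine triphosphate hydrolase and covers the fragile site FRA3B. Its 4 CHIR+SB peaks all lay within the gene, at 110, 432, 509 and 695 kb from the TSS (hg19 chromosome 3, 60541778 to 61127352), with 38, 15, 16 and 15 reads. The outermost sites recurred in CHIR, where the one at 110 kb had 26 reads and the one at 695 kb had 24. The signal at 110 kb was 21.4 in CHIR+SB and 9.98 in CHIR. At 695 kb it was 8.44 and 9.22. By signal over the whole peak, CHIR+SB therefore had 1 peak that stood above the rest of its own FHIT peaks, and CHIR had none. That CHIR+SB peak was 646 bp wide, against 167 to 262 bp for its other FHIT peaks. Per kb of width its signal was 33.1, below the 50.5, 34.4 and 38.9 at 432, 509 and 695 kb. The CHIR+SB to CHIR ratio at 110 kb was 2.14 for the whole peak and 1.13 (0.670 to 1.94) per kb.

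NUP35, which encodes a nucleoporin of the nuclear pore, had 4 low peaks in CHIR+SB and none in CHIR or RPMI. All lay downstream of the gene, at 168, 284, 408 and 650 kb from the TSS (hg19 chromosome 2, 184156783 to 184639362), with 15, 19, 16 and 17 reads. These signals of 8.44 to 10.7 lay near the median of the whole CHIR+SB list, 9.56. Of all CHIR+SB peaks at or above these signals, 31.7 to 53.2% overlapped no CHIR peak, and these shares count the higher peaks too. All NUP35 peaks but the one of 19 reads lay at or below the list's median. Of all CHIR+SB peaks there, 829 of 939 overlapped no CHIR peak. The nearest CHIR peak to any NUP35 peak was 5560 kb away. The assignment to NUP35 is by position alone.

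**Figure D2:**
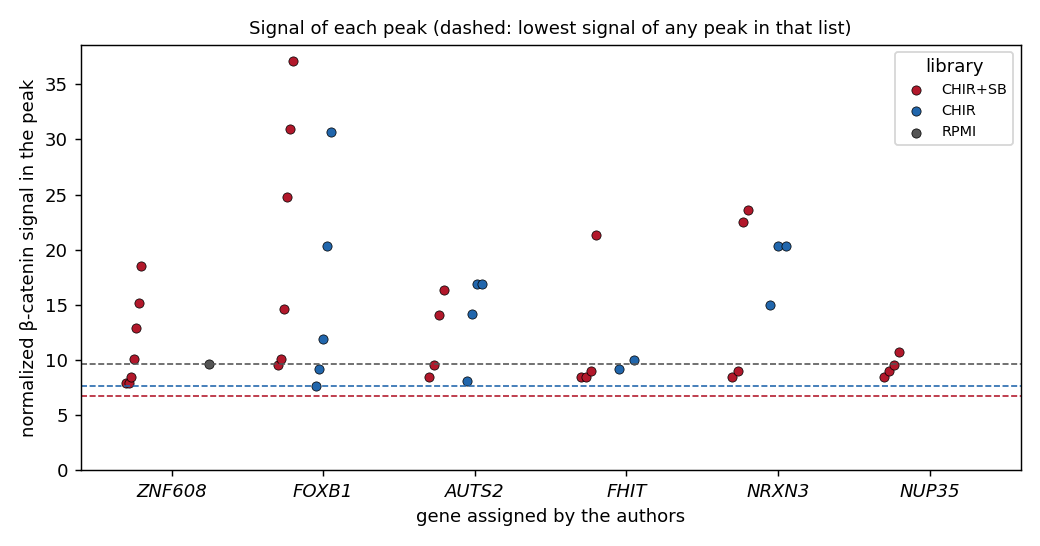
Normalized β-catenin signal of each peak at the 6 loci, by gene and library, with 1 point per peak and a dashed line at the lowest signal of any peak in that library's list. FOXB1 reaches 37.1 in CHIR+SB and 30.7 in CHIR, and NUP35 stays between 8.44 and 10.7.

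Set against all peaks, the 29 CHIR+SB peaks were ordinary in their median. Their median was 18 reads (range 14 to 66) and a signal of 10.1, against 17 reads and 9.56 over the whole list. Of the 29, 15 lay above the median signal of the list, where 48.2% of all CHIR+SB peaks lay. The 14 CHIR peaks had a median of 38 reads (range 20 to 80) and a signal of 14.6, against 31 reads and 11.9 for the whole CHIR list, and 8 of the 14 lay above the list's median (49.1% of all CHIR peaks). At or above the upper quartile of signal lay 11 of the 29 CHIR+SB peaks, against 469 of all 1813. For CHIR it was 6 of the 14, against 270 of all 1053. Peak width was a median of 290 bp in CHIR+SB and 424 bp in CHIR, against 260 and 368 bp over the whole lists. None of the peaks lay within 1 kb of a TSS, where 14.5% of all CHIR+SB, 26.6% of all CHIR and 55% of all RPMI peaks lay, and the closest was the FOXB1 peak at 5.27 kb. More than 50 kb from the TSS lay 22 of the 29 CHIR+SB peaks (47.9% of all CHIR+SB peaks) and 9 of the 14 CHIR peaks (34.3% of all CHIR peaks).

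The recurrence of sites differed among the loci and with the height of the peaks. Of the 29 peaks in CHIR+SB, 13 overlapped one in CHIR by 1 bp or more (44.8%, exact 95% interval 26.4 to 64.3%), where 36.6% of all CHIR+SB peaks did. By gene this was 4 of 4 at AUTS2, 3 of 4 at NRXN3, 4 of 6 at FOXB1, 2 of 4 at FHIT, 0 of 7 at ZNF608 and 0 of 4 at NUP35. These counts by gene were not matched for height. Above the list's median signal lay 2 of the 4 peaks at AUTS2, 2 of 4 at NRXN3 and 5 of 6 at FOXB1. At FHIT it was 1 of 4, at ZNF608 4 of 7 and at NUP35 1 of 4. The 16 unshared peaks had a median of 16.5 reads (14 to 33) and a median width of 221 bp. The 13 shared ones had 29 reads (15 to 66) and 555 bp. Above the list's median signal 9 of 15 recurred (60.0%), against 63.3% of all such peaks. At or below it 4 of 14 did (28.6%, 8.39 to 58.1%), against 11.7%. The interval around the 4 of 14 includes the share of all peaks. At equal signal in CHIR, the expected counts of all 29 reach the 20 reads of the lowest CHIR peak. The lowest expected count is 20.5, and counting error could put such a peak under that minimum.

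In the other direction, each of the 14 peaks in CHIR overlapped one in CHIR+SB (100%, exact 95% interval 76.8 to 100%), where 63.3% of all CHIR peaks did. The loci were chosen for many CHIR+SB peaks, so this share partly follows from the choice. With an overlap of 50% of both peaks required, 71.4% recurred. In RPMI none of these sites was found: 0 of 29 CHIR+SB peaks overlapped an RPMI peak (0 to 11.9%, against 8.77% of all CHIR+SB peaks), and 0 of 14 CHIR peaks did (0 to 23.2%, against 17% of all CHIR peaks). At equal signal the expected counts of 15 of the 29 and 10 of the 14 reach the 15 reads of the lowest RPMI peak. Those of the others fall under it, and counting error is not part of these numbers. Both intervals include the share of all peaks. Those shares also take in peaks within 1 kb of a TSS, where none of the 29 or the 14 lay. Of all RPMI peaks 55% lay there, and shares without such peaks are not given here.

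Signal at shared sites was compared where a CHIR+SB peak and a CHIR peak met no other peak, which left 12 pairs. The CHIR+SB signal was higher in 8 and lower in 4, with a median ratio of 1.13, against 1.00 over all 642 such pairs of the lists. Per kb of peak width the same pairs divided into 6 above and 6 below 1, with a median of 0.996, against 1.01 over the 642. The loci were picked for their CHIR+SB peaks, and the part of that choice in these ratios was not tested. With reads summed over the 12 sites the ratio was 1.11 (exact 95% interval 0.973 to 1.27). The interval lay above 1 at 2 sites (6.7% of all pairs). These were FHIT at 110 kb, with a ratio of 2.14 (1.27 to 3.67), and FOXB1 at 114.3 kb, with 1.82 (1.25 to 2.67). It lay below 1 at AUTS2 at 1102 kb, with 0.499 (0.258 to 0.915), 1 of the 12 (4.21% of all pairs). At the last NRXN3 site the ratio was 0.601 (0.314 to 1.10).

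The width of the called peaks moved with these ratios. Widths in CHIR+SB relative to CHIR were 1.89 at the FHIT site and 1.48 at the FOXB1 site. They were 0.391 at the AUTS2 site and 0.307 at the NRXN3 site. Per kb of peak width the ratios were 1.13 (0.670 to 1.94) at FHIT, 1.24 (0.848 to 1.81) at FOXB1 and 1.28 (0.659 to 2.34) at AUTS2, so none of these 3 intervals excluded 1. On that scale, with the called widths taken as fixed, the interval lay above 1 at the last NRXN3 site (3.43% of all pairs). It lay below 1 at the AUTS2 site at 10.1 kb (3.58% of all pairs). Centres of paired peaks differed by 14.5 to 280 bp.

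**Figure D3:**
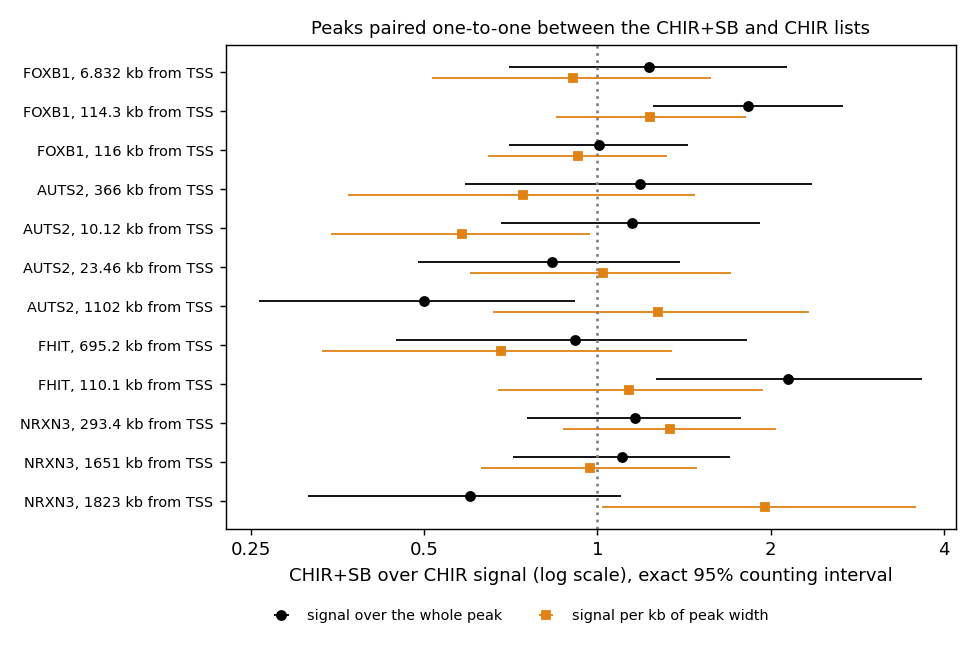
Ratio of CHIR+SB to CHIR signal at the 12 one-to-one pairs, on a log scale with exact 95% counting intervals, for the whole peak (circles) and per kb of width (squares); distances are from the start site of the transcript assigned in the CHIR+SB list. Whole-peak intervals miss 1 at FHIT 110.1 kb, FOXB1 114.3 kb and AUTS2 1102 kb, and none of these 3 does so per kb, where the intervals at AUTS2 10.12 kb and NRXN3 1823 kb miss 1.

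β-catenin signal exceeded IgG signal in every peak of the 6 loci. The ratio was 2.68 to 12.1 in the 29 CHIR+SB peaks (median 4.29), 3.20 to 11.4 in the 14 CHIR peaks (median 4.75) and 2.79 in the RPMI peak. The medians of the whole lists were 4.29, 4.66 and 4.28. The exact interval lay above 1 in all 29 and all 14, and it included 1 in the RPMI peak (0.964 to 9.82). The lists hold only peaks that the authors called, so these ratios describe called peaks alone. With reads summed over the loci, signal over IgG was 4.45 in CHIR+SB (3.83 to 5.19) and 4.67 in CHIR (3.60 to 6.15). The 29 CHIR+SB peaks held 231 IgG reads in all, a median of 8 a peak, and the 14 CHIR peaks 64, a median of 4.

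The AUTS2 peak 366 kb upstream had ratios of 12.1 in CHIR+SB (2.88 to 108) and 11.4 in CHIR (1.84 to 473), on 2 and 1 IgG reads. These intervals are too wide to rank it among the sites. Of the AUTS2 peaks, the authors' local −log10 p-value was highest there, 6.02 in CHIR+SB and 8.44 in CHIR. High signal over the whole peak did not go with the highest local values at the FOXB1 pair. There they were 2.43 and 2.16 in CHIR+SB and 1.56 and 3.67 in CHIR, against medians of 4.77 and 4.97 over the whole lists. The IgG counts at the FOXB1 pair were 16 and 15 in CHIR+SB and 6 and 11 in CHIR.

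**Figure D4:**
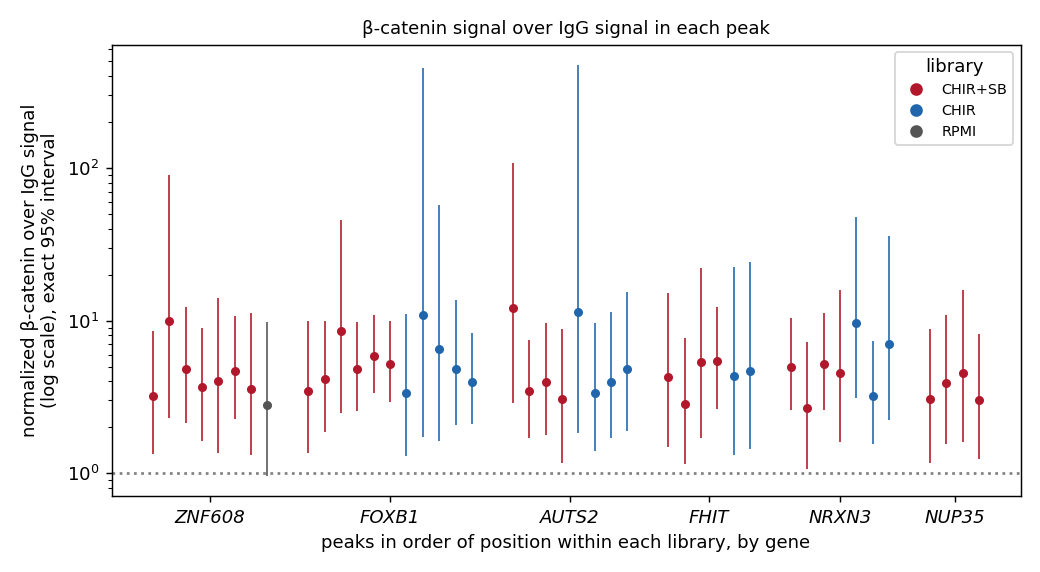
Normalized β-catenin signal over IgG signal in each peak, on a log scale with exact 95% intervals from both read counts, grouped by gene and, within a gene, by library and position. Ratios run from 2.68 to 12.1, and the RPMI peak at ZNF608 is the one interval that reaches below 1.

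Spacing ranged widely among the loci. In CHIR+SB neighbouring peaks of a gene were a median of 124 kb apart (23 gaps, 1.56 to 1078 kb), and in CHIR 140 kb (10 gaps, 0.317 to 1078 kb). Peaks next to each other anywhere in the lists were a median of 895 and 1363 kb apart, but the loci were chosen for many peaks and the shorter spacing follows from that. FOXB1 was compact, with 3 of its 5 gaps under 2 kb and a span of 125 kb. At ZNF608 the gaps ran from 29.7 to 269 kb, at NUP35 from 117 to 242 kb and at FHIT from 76.3 to 322 kb. AUTS2 combined a gap of 13.3 kb with one of 1078 kb.

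Genes other than these 6 also met the threshold of 4 peaks, or came close to it. AUTS2, FHIT, NRXN3 and NUP35 had exactly 4, as did 6 further genes, and 35 genes had 3. The other 11 genes with 4 or more were AXIN2, LPHN2, MYO3B, PAX3, PRKG1-AS1, FZD2, NEBL-AS1, PAPPA, RBFOX1, TEAD1 and VAT1L. Of their 49 peaks in CHIR+SB, 20 overlapped one in CHIR (40.8%), beside 13 of 29 here. LPHN2, with 5 peaks of up to 16 reads over 692 kb, and RBFOX1, with 4 of up to 19 reads over 1706 kb, shared none with CHIR. VAT1L, PAPPA and AXIN2 had the highest single peaks of the 11, of 67, 39 and 81 reads.

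Relatives of the loci were counted from 4 gene lists, leaving out the 6 genes themselves. Of 57 listed genes with very long loci, 25 had at least 1 peak at any distance in CHIR+SB (43.9%, against 6.25% of 20056 protein-coding genes), 11 in CHIR (19.3%, against 3.8%) and 3 in RPMI (5.26%, against 1.14%). Within 50 kb of a TSS the numbers were 5, 2 and 1 (8.77%, 3.51% and 1.75%, against 3.73%, 2.69% and 0.888%). A longer transcript offers more sequence in which a peak is assigned to it, and its part in these counts was not tested. With 2 or more peaks there were 10, 2 and 0 of the 57 (against 0.912%, 0.379% and 0.0249% of protein-coding genes). RBFOX1 had 4, 1 and 0 peaks in CHIR+SB, CHIR and RPMI, TENM2 3, 3 and 0, CSMD1 3, 3 and 1, and CCSER1 3, 0 and 0. CSMD3, DPP10, IMMP2L and PCDH15 had 2 in CHIR+SB and 1 in CHIR, and RAD51B and ZBTB20 had 2 in CHIR+SB alone.

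Of 43 other forkhead genes, 10 had a peak at any distance in CHIR+SB (23.3%), 3 in CHIR (6.98%) and none in RPMI, against the 6.25%, 3.8% and 1.14% of protein-coding genes given above, and none had 2 or more. Within 50 kb of a TSS the numbers were 7, 2 and 0 (16.3%, 4.65% and 0%, against 3.73%, 2.69% and 0.888% of protein-coding genes). FOXH1, which works with SMAD2 and SMAD3, and FOXN3 had one in both CHIR+SB and CHIR. Of 13 listed genes for neurexins and their synaptic partners, 4 had a peak in CHIR+SB (30.8%), none in CHIR and 1 in RPMI (7.69%), against the same shares. Within 50 kb of a TSS 1 had a peak in CHIR+SB (7.69%, against 3.73%) and none in CHIR or RPMI. LRRTM4 had 2 in CHIR+SB alone. Of 31 other nucleoporin genes none had a peak in CHIR+SB or CHIR, and 1 had one in RPMI (3.23%, against 1.14%), which was AHCTF1.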

How the data were processed

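β-catenin and IgG ChIP-seq libraries of SA121 cells were analysed from the peak lists that the authors deposited, 1 for each β-catenin library. The submitters' processing notes name Bowtie as aligner and the builds hg19 and mm9. The human positions are printed as listed, in hg19. Of the peak caller and thresholds nothing is stated in the labels. Per the file headers, the lists hold whole read counts of the antibody and IgG libraries within each peak. They also hold the same counts as a normalized signal (1 factor per library, tested on the files), their ratio, −log10 p-values, and the assigned gene with its distance. Decimal commas were read as points. The IgG libraries were used only through these counts.

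Members were rows with 1 of the 6 gene names, ignoring case. The loci and gene lists were chosen with earlier results of these data known. Some genes of the lists are not reported here and are in none of the list counts. Overlap meant at least 1 bp. Shares have Clopper-Pearson 95% intervals and ratios exact conditional binomial ones, which assume independent reads and cover counting error only. Interval and overlap functions were tested on simulated data (Python 3.11.15, scipy 1.17.1, pandas 2.3.3). With 1 library per condition no test between conditions was made. The text names the 6 genes, all others with 4 or more CHIR+SB peaks, and list genes with 2 or more peaks in any list, besides MARCH3, FOXH1, FOXN3, AHCTF1 and neighbouring genes, which were named after their values were seen. Gene names matched RefSeq (GRCh38.p14) for 99.3%, 99.1% and 100% of names in CHIR+SB, CHIR and RPMI. No sequence is shown, since no hg19 sequence was used here.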

Additional observations from a re-analysis of the deposited data

How the results depend on the processing

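The number of peaks at the 6 loci depended on the minimum. Of the 29, 14 and 1 peaks in CHIR+SB, CHIR and RPMI, 15, 10 and 1 stayed at a common signal minimum of 9.61. At the median of each list 18, 9 and 0 stayed, and within 50 kb of the TSS 7, 5 and 0. The share of CHIR peaks that recurred in CHIR+SB was 71.4% with an overlap of 50% of both peaks. At the AUTS2 site at 1102 kb the CHIR+SB to CHIR ratio turned to 1.28 per kb of width. Genes of the other lists with 2 or more peaks numbered 10, 2 and 0 for very long loci, 0 in CHIR+SB and 0 in CHIR for forkhead genes, 1 in CHIR+SB and 0 in RPMI for neurexins and partners, and 0 in RPMI for nucleoporins. Within 50 kb they numbered 5, 2 and 1 for very long loci and 1, 0 and 0 for neurexins and partners. In all, 35 values of this kind stayed within their interval or within 1.5 times. Among them were the CHIR and RPMI counts at the common minimum, the spacing, the signal over IgG and the median ratio of the 12 pairs. That median still went from 1.13 to 0.996 per kb of width, so it did not stay above 1. One alternative, the ratio with CHIR peaks under 1 CHIR+SB peak summed, was chosen after the data were seen. No paired analysis was possible because each condition has 1 library and no test was made. Reads of a library outside its own peaks are not listed, so an absent peak gives no upper limit. The lowest peaks of the 6 loci were near the lowest listed. They had 14 reads in CHIR+SB, 20 in CHIR and 15 in RPMI, against list minima of 12, 20 and 15.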
